A study of Mus musculus with 9 samples.

Results

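The cells described here were barcodes of the mouse brain that held transcripts of Dcx, the doublecortin gene of migrating neuroblasts, together with transcripts of the transcription factor genes Zic1 and Zic2. They were picked by a rule on counts of unique molecular identifiers (UMIs). A barcode had to hold 1000 to 20000 UMIs, 100 to 6000 genes and under 10% mitochondrial UMIs, at least 1 Dcx UMI and at least 2 UMIs of Zic1 and Zic2 combined. It could hold at most 1 UMI of Foxp2 and Sfrp2 combined, at most 1 of the cell cycle genes Top2a, Mki67, Nusap1 and Cenpf, and at most 1 of the astroglial transporters Slc1a2 and Slc1a3. The rule found 152 of 18390 retained cells, and they are called Zic cells below. Because measured counts chose them, the 11 genes of the rule are described without a test, and the working name of these cells as neuroblasts is checked against other genes below.

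The Zic genes encode zinc-finger transcription factors that act in the developing nervous system. In the adult brain, stem cells in the walls of the lateral ventricles produce neuroblasts that travel along the rostral migratory stream to the olfactory bulb and mature there into inhibitory interneurons of the granule cell layer or of the glomerular layer. Where a stem cell lies biases which interneuron it makes, and Zic factors are known from the septal and dorsal side of this zone and from glomerular interneurons that contain calretinin, the product of Calb2. Other glomerular interneurons make dopamine and carry Th, tyrosine hydroxylase.

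The study asked how interferon acts on neural stem cells and their progeny in young and old mice, and sequenced single cells of the ventricular-subventricular zone (vSVZ) and of the rest of the brain (RoB: striatum, rostral migratory stream and olfactory bulb, pooled). All mice were male TiCY mice on a C57BL/6 background, in which a tamoxifen-inducible Cre under Nr2e1 (Tlx) control switches on a yellow fluorescent reporter (eYFP) from the ROSA26 locus in stem cells, and whose strain name also lists the Fas tm1Cgn allele. The WT groups carried no further allele, and the KO groups (IFNAGR KO) lacked in every cell Ifnar1, of the receptor for type-I interferons, and Ifngr1, of the receptor for interferon gamma, through the Ifnar1 tm1Agt and Ifngr1 tmAgt alleles. WT young mice were 16 weeks old, with tamoxifen at 10 weeks and a chase of 6 weeks. WT old mice were 80 weeks old, with tamoxifen at 71 weeks and a chase of 9 weeks. KO young mice were 16 weeks old, with tamoxifen at 7 weeks and a chase of 9 weeks, and KO old mice were 92 to 105 weeks old, with tamoxifen at 85 or 98 weeks and a chase of 9 weeks. Sorting took eYFP+ and GLAST+ cells of the vSVZ. Of the RoB it took eYFP+ cells, and eYFP- cells only where PSA-NCAM was low. Cells with CD45, Ter119 or O4 were removed. The gate through which a cell came was not recorded, so the gates enter every share of cells and every level given here.

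Each group was 1 library pooled from 2 mice, so a difference between single groups has no replicate. A group and its reaction cannot be told apart, and neither can the WT young group and its shorter chase. The 4 libraries held 27096070 to 78028524 UMIs and 2423 to 6638 retained cells. Over all retained cells Ifngr1 was at 47.3 UMIs per 1000000 UMIs of the cells summed (counts per 1000000, CPM) in WT young and 85.7 in WT old, with 2.78 in KO young and 4.40 in KO old, and Ifnar1 at 21.1, 28.5, 8 and 6.64, so both receptors were lower in the libraries labelled KO. Below, 4 values given without names follow this order of the libraries. The Zic cells were too few to repeat this check, with 3 Ifngr1 UMIs and 12 Ifnar1 UMIs in all. Over all retained cells, 30 barcode sequences occurred in more than 1 library, and 1 Zic cell of WT young carried such a sequence. Scrublet predicted 1 Zic cell, of KO old, to be a doublet.

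The 152 Zic cells split into 48 in WT young and 16 in WT old, with 70 in KO young and 18 in KO old. They made up 0.811% of retained cells in WT young (95% exact Clopper-Pearson interval 0.599 to 1.07%) and 0.660% in WT old (0.378 to 1.07%), with 1.05% in KO young (0.823 to 1.33%) and 0.527% in KO old (0.313 to 0.832%). These intervals, like all others given here, cover counting error only, and they overlapped between every pair of libraries. Among Dcx cells that also met the limits on cycle and astroglial genes, the share was 2.04% in WT young and 5.06% in WT old, with 3.66% in KO young and 3.44% in the KO old library, so that the order of the libraries depended on the denominator. The Zic cells held 237130, 108577, 537078 and 138303 UMIs in these libraries, and their median depth was 4716.5 UMIs in WT young and 6028.5 to 7240.0 in the other 3.

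Zic UMIs were not rare outside the rule. Of 621 retained cells with at least 2 Zic UMIs, 332 had no Dcx UMI, and of the 289 with Dcx the limit on Slc1a2 and Slc1a3 set aside 118, the limit on cycle genes 42 and the limit on Foxp2 and Sfrp2 16, some of them for more than 1 reason. Among the members, 61 held exactly 2 Zic UMIs, 26 held 3 and 65 held 4 or more, up to 15 in a cell, and 38 held only 1 Dcx UMI. Just outside the threshold lay 151 cells that met the rest of the rule with 1 Zic UMI, 59 in WT young and 12 in WT old, with 69 in KO young and 11 in the KO old library. In 362 microglia-like barcodes (at least 3 UMIs of C1qa, C1qb and C1qc), which should lack Zic genes, 2 had at least 2 Zic UMIs. Both were among the 111 such barcodes of KO young. The comparison classes were 3613 other neuroblasts, which met the rest of the rule with no Zic UMI, and 1189 Foxp2 and Sfrp2 neuroblasts, which had at least 2 UMIs of those genes and at most 1 Zic UMI.

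Zic1 lies on chromosome 9 (91358058 to 91365810, minus strand; GRCm38, GENCODE vM21) and was at 459.7 CPM in WT young and 617 in WT old, with 317 in KO young and 296 in KO old. Zic2 lies on chromosome 14 (122475435 to 122479852, plus strand) and was at 337 CPM in WT young and 129 in WT old, with 162 in KO young and 231 in KO old. Of the 152 cells, 63 held Zic1 and no Zic2, 42 held Zic2 and no Zic1, and 47 held both. The rule required these transcripts, so the values only describe the members.

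Zic4 and Zic5 were not part of the rule. Zic4, the neighbour of Zic1 on chromosome 9 (91362413 to 91389348, plus strand), had 17 UMIs in Zic cells, 6 in WT young and 0 in WT old, with 7 in KO young and 4 in KO old, against 1 UMI in all 3613 other neuroblasts. It was higher in Zic cells (edgeR log2 difference 7.42 ± 1.04 (SE)), although the size of a fold against a class almost at 0 depends on the fit. Zic1 and Zic4 overlap by 3398 bases on opposite strands, and whether the counting used strand is not given in the sources used here, so reads of the overlap cannot be told apart. Zic5, 9757 bases from Zic2 on chromosome 14 (122456795 to 122465677, minus strand), had 29 UMIs, 12 in WT young and 1 in WT old, with 13 in KO young and 3 in KO old, against 11 UMIs in other neuroblasts. It was higher in every library, at 50.6, 9.21, 24.2 and 21.7 CPM against 0.241, 2.22, 0.517 and 0.902 (log2 difference 5.31 ± 0.76 (SE)). Zic4 and Zic5 passed the filter on low counts only through the Zic cells, so both differences are a description. Zic5 was found in 1 of 63 cells with Zic1 alone, 6 of 42 with Zic2 alone and 14 of 47 with both.

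Sp8 and Synpr, named as markers of these cells from earlier results of these data, are given here as a description. Sp8, a zinc-finger factor of olfactory interneuron progenitors (chromosome 12, 118846329 to 118852576), was at 1670.0 CPM in WT young and 1078 in WT old, with 1752 in KO young and 1207 in the KO old library in Zic cells and at 703, 771, 944 and 646 in other neuroblasts, higher in the Zic cells of all 4 libraries (log2 difference 0.77). Synpr, which encodes the synaptic vesicle protein synaptoporin (chromosome 14, 13284780 to 13616340), was at 539.8, 2284, 728 and 1837 CPM against 125, 213, 129 and 278 (log2 difference 2.56). The 2 old libraries had more Synpr and less Sp8 in Zic cells than the 2 young ones, without overlap for either gene. Of 3821 genes tested for age in Zic cells, 2413 showed no such overlap. Near the threshold, the cells with 1 Zic UMI were at 1571, 796, 1278 and 519 CPM for Sp8 and at 430.5, 1025, 551 and 713 for Synpr. The members with exactly 2 Zic UMIs were at 1582 CPM for Sp8 and 743 for Synpr over all libraries, and those with at least 3 at 1591 and 1162.

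The label of neuroblasts held for most young members and for few old ones. Igfbpl1, a gene of immature olfactory neurons, had a UMI in 47 of 48 Zic cells in WT young and 3 of 16 in WT old, with 54 of 70 in KO young and 4 of 18 in KO old. Among other neuroblasts the share with an Igfbpl1 UMI was 97.0% in WT young and 81.9% in WT old, with 91.5% in KO young and 79.7% in KO old. Rbfox3, which encodes the nuclear protein NeuN of mature neurons, marked the opposite end, and it was found without Igfbpl1 in 0 of 48 Zic cells in WT young and 10 of 16 in WT old, with 12 of 70 in KO young and 11 of 18 in KO old. Both genes were found together in 9 Zic cells, and neither in 11.

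A sum over 3 genes at each end gave the same order. The median of Igfbpl1, Sox11 and Cd24a together was 80.1 UMIs per 10000 in WT young Zic cells and 0.746 in WT old, with 84.5 in KO young and 0.336 in KO old, and that of Rbfox3, Syt1 and Snap25 was 0, 25.7, 1.41 and 37.7. The neuronal sum exceeded the immature sum in 3 of 48, 12 of 16, 14 of 70 and 17 of 18 cells. Most Zic cells of the old libraries thus carried at least the required Dcx UMI with mature neuronal transcripts and little of the immature set. Dcx rested on exactly 1 UMI in 9 of 48, 7 of 16, 14 of 70 and 8 of 18 cells. Dcx, which the rule required, was at 721 CPM in WT young and 442 in WT old, with 529 in KO young and 347 in the KO old library. In a pooled sum, fewer immature cells and less immature RNA per cell cannot be told apart, which bears on every age and genotype value below.

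**Figure D1:**
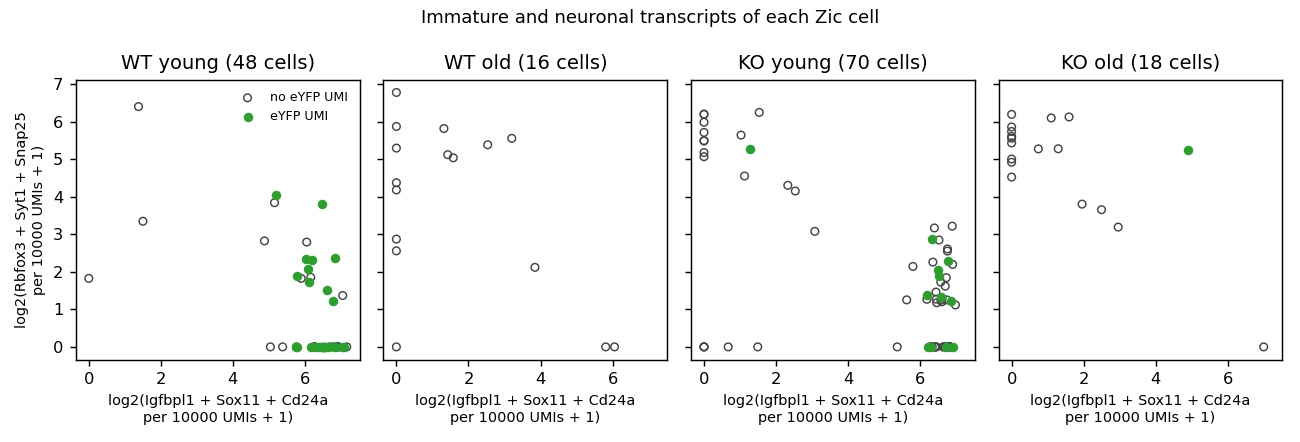
Each point is a Zic cell, with the summed Igfbpl1, Sox11 and Cd24a UMIs per 10000 on the horizontal axis and the summed Rbfox3, Syt1 and Snap25 UMIs per 10000 on the vertical axis (both log2 of the value plus 1), in a panel per library; filled green points have an eYFP UMI. The neuronal sum exceeded the immature sum in 3 of 48 cells in WT young and 17 of 18 in KO old.

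The eYFP reporter, which marks cells born from Tlx-expressing stem cells after tamoxifen, was found in 39 Zic cells. At least 1 eYFP UMI was present in 26 of 48 Zic cells of WT young (54.2%), 0 of 16 of WT old (0%), 12 of 70 of KO young (17.1%) and 1 of 18 of KO old (5.56%). The count of 0 of 16 allows a share of up to 18.8% at 3 counts, and its exact 95% interval reaches 20.6%. The shares in other neuroblasts were 76.6%, 46.6%, 69.4% and 56.6%, at median depths of 4367, 5719, 5955 and 5955.5 UMIs, and those in Foxp2 and Sfrp2 neuroblasts 76.5%, 59.7%, 73.4% and 59.0%. Microglia-like barcodes, which should lack the reporter, showed an eYFP UMI in 8.18%, 0%, 12.6% and 4.35%, at median depths of 4758, 6042, 5654 and 6418 UMIs. The Zic cells of WT young lay above this background, while those of KO young (95% exact interval 9.18 to 28.0%), WT old and KO old did not lie clearly above it. After thinning every cell to 1000 UMIs, the share in Zic cells was 29.2%, 0%, 4.29% and 0%, and that in microglia-like barcodes 2.52%, 0%, 3.6% and 0%.

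**Figure D2:**
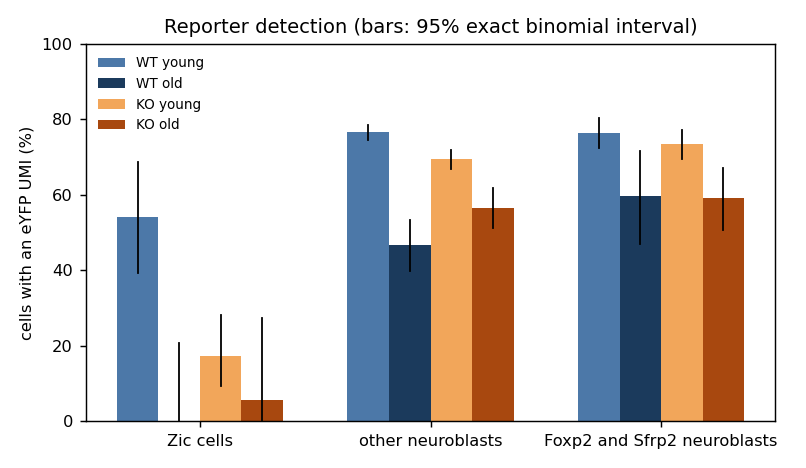
Bars give the percentage of cells with at least 1 eYFP UMI in each cell class and library, with 95% exact binomial intervals that cover counting error only. Zic cells (54.2%, 0%, 17.1% and 5.56%) lay below other neuroblasts in every library.

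In the fit over the 4 libraries eYFP was lower in Zic cells than in other neuroblasts, at 274, 0, 72.6 and 7.23 CPM against 618, 245, 447 and 295 (log2 difference -2.51 ± 0.38 (SE), edgeR adjusted p = 0.000512). Of the 39 Zic cells with an eYFP UMI, 38 also had an Igfbpl1 UMI. Among Zic cells with Igfbpl1, eYFP was found in 26 of 47 in WT young and 11 of 54 in KO young, and in the fit limited to Igfbpl1 cells of the young libraries eYFP was again lower than in other neuroblasts (-1.82 ± 0.16 (SE), edgeR adjusted p = 1.27e-25), as it was with at least 3 Igfbpl1 UMIs (-1.70, edgeR adjusted p = 2.35e-17). The WT young library, with the highest share, also had the shortest chase, and the part of the chase in this was not tested.

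Calb2, the calretinin gene (chromosome 8, 110137502 to 110168210), showed the largest rise in Zic cells among the called genes with a mean of at least 20 CPM. It was at 114 CPM in WT young and 553 in WT old, with 93.1 in KO young and 484 in the KO old library in Zic cells (27, 60, 50 and 67 UMIs) and at 0.361, 1.48, 1.29 and 3.16 in other neuroblasts, higher in 4 of 4 libraries (log2 difference 7.13 ± 0.32 (SE)). Th (chromosome 7, 142892752 to 142931128) was at 16.9, 221, 74.5 and 217 CPM against 4.33, 14.0, 7.5 and 7.66 (log2 difference 3.52 ± 0.36 (SE)), and Scgn, which encodes the calcium sensor secretagogin of glomerular interneurons, at 33.7, 746, 130.3 and 108 against 6.02, 6.65, 8.54 and 23.0 (3.78 ± 0.48 (SE)). Calb2, Th and Scgn passed the filter on low counts only through the Zic cells, so these differences are a description. For all of them the Zic cells of WT young were the lowest or near the lowest and those of WT old the highest. These transcripts came from few members: 28 of 152 held a Calb2 UMI and the 5 richest cells held 53.9% of the Calb2 UMIs, while 20 held Th and the 5 richest held 54.1%.

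At least 2 Calb2 UMIs were found in 4 of 48, 5 of 16, 5 of 70 and 6 of 18 Zic cells, and in 2 of the 3613 other neuroblasts. At least 2 Th UMIs were found in 1, 3, 7 and 4 Zic cells and in 24 other neuroblasts, and 7 Zic cells held at least 2 of both. Of the 20 Calb2 cells 15 lacked Igfbpl1, and of the 15 Th cells 10 lacked it. Zic1 was present in 19 of the 20 Calb2 cells and in all 15 Th cells. Split by Zic gene, 16 of 63 cells with Zic1 alone held a Calb2 UMI and 14 a Th UMI, against 1 and 1 of 42 cells with Zic2 alone, and 11 and 5 of 47 cells with both. Scgn followed with 17 of 63, 3 of 42 and 9 of 47. The 3 sets of cells had median depths of 6946, 6209 and 6478 UMIs, with Igfbpl1 in 40 of 63, 35 of 42 and 33 of 47. This split of the members was made after their values were seen and was not tested.

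**Figure D3:**
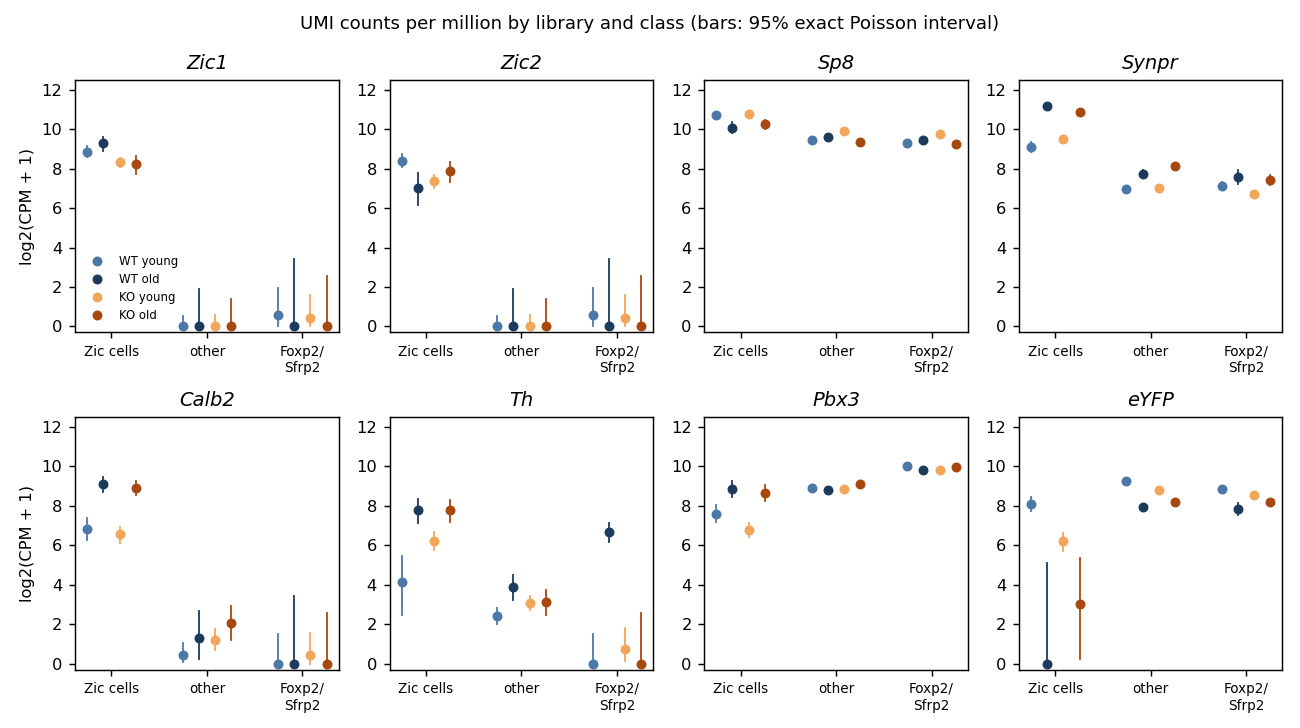
Levels of Zic1, Zic2, Sp8, Synpr, Calb2, Th, Pbx3 and eYFP as log2(CPM + 1) in Zic cells, other neuroblasts and Foxp2 and Sfrp2 neuroblasts, with a point per library and bars for the 95% exact Poisson interval of its UMI sum. Calb2 in Zic cells (93.1 to 553 CPM) lay above other neuroblasts (0.361 to 3.16 CPM) in all 4 libraries.

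Zic cells were then compared with other neuroblasts over all genes, with UMIs summed per class and library and the library as a block, so that the 4 libraries replicate the difference. Of 8949 genes tested, edgeR called 642 at an adjusted p under 0.05 (7.17%), 451 higher (5.04%) and 191 lower (2.13%) in Zic cells, and the median log2 difference over all of them was -0.03. Because the members of old libraries were mostly in the mature state and the other neuroblasts mostly in the immature one, this comparison carries the state along with the class. The call count fell to 305 without the WT old library, to 335 without KO young and to 278 without KO old.

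After Calb2, the largest rise was in Cpne6. This gene, a calcium-dependent membrane-binding copine of neurons, was at 71.7, 1243, 459.9 and 1656 CPM in Zic cells and at 4.94, 82.0, 34.8 and 72.1 in other neuroblasts (3.90 ± 0.22 (SE), edgeR adjusted p = 6.31e-09). Cpne8, a further copine, rose by 2.98 on the log2 scale, Crhbp, the binding protein of corticotropin-releasing hormone, by 2.87, and Htr1f, a serotonin receptor, by 2.73, from 2.05 to 24.4 CPM in other neuroblasts to 16.9 to 221 in Zic cells. Serpine2, a secreted protease inhibitor, was at 169, 55.3, 33.5 and 188 CPM against 7.58, 4.43, 15.5 and 10.8 (3.16 ± 0.46 (SE), edgeR adjusted p = 0.000426), with its highest values in WT young and KO old. Zcchc12, a transcriptional co-activator of neurons, was at 80.1, 212, 87.5 and 130.1 against 10.5, 14.8, 12.4 and 20.7 (2.89 ± 0.27 (SE), edgeR adjusted p = 5.12e-06), and Nrsn1, a neuronal vesicle protein, at 325, 626, 268 and 824 against 34.1, 68.0, 69.6 and 102 (2.70 ± 0.22 (SE), edgeR adjusted p = 1.55e-06). The libraries did not overlap between the classes for either of the last 2 genes. Zar1 (3.32) and the adhesion gene Amigo2 (3.24) completed the 12 largest rises with Calb2, Scgn and Th.

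The largest falls included several transcriptional regulators and progenitor genes. Mn1, a transcriptional regulator, was at 80.1, 0, 48.4 and 28.9 CPM in Zic cells and at 268, 224, 324 and 219 in other neuroblasts (-2.71 ± 0.31 (SE), edgeR adjusted p = 5.98e-05). Vax1, a homeobox gene of the ventral forebrain, was at 29.5, 9.21, 7.45 and 14.5 against 75.5, 49.5, 59.9 and 51.4 (-2.22 ± 0.37 (SE), edgeR adjusted p = 0.0012), and Tshz2, a zinc-finger factor of the main neuroblast stream, at 54.8, 0, 24.2 and 0 against 103, 80.5, 102 and 88.8 (-2.11 ± 0.40 (SE), edgeR adjusted p = 0.00318). Ccnd2, the D-type cyclin of neural progenitors, was at 1004, 64.5, 938 and 137 against 2221, 1664, 1957 and 1736 (-2.37 ± 0.43 (SE), edgeR adjusted p = 0.00259). Neb (-3.21), E130006D01Rik (-3.13), Tgfb1i1 (-3.01), the replication licensing gene Mcm6 (-2.66), Chodl (-2.55), the phosphatase gene Dusp4 (-2.45) and Prox1os (-2.35) fell as well, each in 4 of 4 libraries, and eYFP was the 12th gene.

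Gene lists were read by their counts. Sp8 and Synpr were markers named from earlier results of these data. Class counts of lists that hold them, here and below, therefore only describe the members. Of 12 glomerular layer genes 5 were tested, and 4 were higher in Zic cells and 0 lower, against 5.04% of all genes higher. The 4 were Calb2, Th, Synpr and Nr4a2, the orphan receptor of dopaminergic neurons (median log2 difference of the 5 tested 2.56). Calb2 and Th passed the filter on low counts only through the Zic cells, so their calls here only describe the members. Of 7 granule cell layer genes, Cpne6, Gng4, Pcp4 and Penk were higher and Tpbg lower (median 0.97). Of 17 genes of synaptic maturation, 11 were higher and 0 lower (median 1.09), among them the vesicle genes Syn2 (2.05), Vamp2 (1.12) and Snap25 (1.10), and of 13 GABA and glutamate receptor genes 6 were higher and 0 lower (median 0.98), led by Gria1 (1.46). Of 13 genes of immature neurons, 0 were higher and 8 lower (median -1.28), among them Cd24a (-1.63), Sox4 (-1.59) and Stmn1 (-1.55). Of 6 genes of GABA synthesis and transport only Gad1 was called (1.04 ± 0.21 (SE), edgeR adjusted p = 0.0049).

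Of 18 interneuron transcription factors, Sp8 and Dlx6 were higher and St18, Prox1, Pbx3, Dlx2 and Tshz2 lower (median -0.70, with 11 not called). Pbx3, a homeobox factor, was at 194, 469.7, 109.9 and 405 CPM in Zic cells and at 481, 440.3, 457 and 546 in other neuroblasts (-1.06 ± 0.27 (SE), edgeR adjusted p = 0.0223), so that the classes lay apart in the young libraries and close together in the old ones. Meis2, a homeobox factor of olfactory interneurons, was close between the classes, at 1923, 1731, 1458 and 1735 CPM against 1408, 1736, 1437 and 1682. The 8 dorsal and septal genes summed to 71.7, 0, 29.8 and 0 CPM in Zic cells and to 32.6, 29.5, 26.4 and 15.3 in other neuroblasts, with Emx2, Lhx2 and Tbr1 holding 32 of their 33 UMIs and Emx1, Eomes, Tfap2c and Lhx9 none. The 10 ventral and lateral genes summed to 29.5, 9.21, 57.7 and 14.5 CPM against 76.7, 50.2, 63.1 and 54.5, where Ebf1 gave 26 of the 41 UMIs, all of them in KO young, and Vax1 14. Of the ventral genes 7, among them Nkx2-1 and Lhx6, had no UMI in the 152 cells, a count of 0 that allows up to 2.94 CPM over all members. Neither of the 2 dorsal and septal genes that could be tested was called.

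Of 22 guidance and migration genes, Dab1, Sema3c and Epha5 were higher and Epha4, Plxna2, Robo1, Plxna4 and Efnb2 lower (median -0.41). Epha5, an ephrin receptor, was at 88.6, 1345, 421 and 1432 CPM against 54.7, 284, 159 and 379.6 (1.51 ± 0.23 (SE), edgeR adjusted p = 0.000505), with the Zic cells above other neuroblasts in every library. Epha4, a receptor of the same family, went the other way, at 80.1, 92.1, 50.3 and 43.4 against 140.5, 193, 175 and 182 (-1.53 ± 0.24 (SE), edgeR adjusted p = 0.000824). Dab1, the adaptor of reelin signalling, was at 105, 73.7, 65.2 and 181 against 19.7, 42.1, 30.5 and 61.8 (1.4 ± 0.27 (SE), edgeR adjusted p = 0.00386), and Plxna4, a semaphorin co-receptor, at 92.8, 46.1, 48.4 and 43.4 against 167, 196, 200.0 and 185 (-1.79 ± 0.25 (SE), edgeR adjusted p = 0.000364). The Plxna4 values of the 2 classes did not overlap.

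To bring the state of the cells closer, the class was compared again in subsets chosen after seeing the data. In the young libraries these were the cells with at least 1 Igfbpl1 UMI (47 and 54 Zic cells) and, more strictly, with at least 3 (44 and 49). In the 3 libraries with at least 10 such cells in both classes they were the cells without an Igfbpl1 UMI (13, 16 and 14 Zic cells) and, of these, the cells with a Rbfox3 UMI (10, 12 and 11). With at least 1 Igfbpl1 UMI edgeR called 322 of 10289 genes (3.13%), 189 higher (1.84%) and 133 lower (1.29%) in Zic cells, with 1 residual degree of freedom, and with at least 3 it called 121 of 10149 (1.19%). Without Igfbpl1 it called 155 of 4389 (3.53%), 54 higher (1.23%) and 101 lower (2.3%), and with Rbfox3 in addition 183 of 3598 (5.09%). The looser subsets still mix states. The 3 and 5 Zic cells with only 1 or 2 Igfbpl1 UMIs held 31.6% and 46.7% of the synaptic list UMIs of the Igfbpl1 cells in WT young and KO young, and in both libraries the richest cell alone held 23.1% and 25.0% (138 of 598 and 215 of 861 UMIs). Over all libraries, the cells without Igfbpl1 had no Rbfox3 UMI either in 11 of 44 Zic cells. The cells with vascular UMIs described below were not removed from these subsets.

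Sp8, Synpr and Zcchc12 were higher in Zic cells in all 4 subsets. Sp8 and Synpr were markers named from earlier results of these data, so their values here are a description. The stricter subset of each pair lay within the looser one. Synpr differed by 2.21 with at least 1 Igfbpl1 UMI, 2.08 with at least 3, 1.61 without Igfbpl1 and 1.64 with Rbfox3 and no Igfbpl1. In the same order, Sp8 differed by 1.02, 1.12, 1.17 and 1.07, and Zcchc12 by 2.54, 2.17, 2.29 and 2.51. Serpine2 differed by 2.71, 2.54 and 2.67 and was below the filter on low counts in the last subset. Epha4 was lower in all of them (-1.36, -1.47, -2.62 and -2.50).

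Calb2, Th and Cpne6 were called in the mature subsets. Without Igfbpl1, Calb2 differed by 5.41, Cpne6 by 2.18 (edgeR adjusted p = 8.6e-10) and Th by 1.82 (edgeR adjusted p = 0.000173), and with Rbfox3 in addition by 5.24, 2.35 and 2.22. Calb2 passed the filter on low counts there only through the Zic cells, so its difference is a description. Among cells with at least 1 Igfbpl1 UMI, Cpne6 (5.08, edgeR adjusted p = 2.08e-19) and Th (5.01, edgeR adjusted p = 0.000191) were called too, but all Th UMIs there, 4 in WT young and 7 in KO young, came from 1 cell of each library, and with at least 3 Igfbpl1 UMIs none of these 3 genes passed the filter on low counts. Nrsn1 differed by 2.83 with at least 1 Igfbpl1 UMI and by 1.11 with at least 3, where it was not called (edgeR adjusted p = 0.201).

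The counts of the synaptic list differed between the subsets. With at least 1 Igfbpl1 UMI, 6 of 16 synaptic genes and 4 of 12 receptor genes were higher in Zic cells and 0 lower. With at least 3, edgeR called 0 of 15 synaptic genes (3 at an unadjusted p under 0.05), and of 10 receptor genes Gria1, Gria2 and Grin2b were higher. Without Igfbpl1, 0 of 14 synaptic and 0 of 11 receptor genes were higher (edgeR) and Syt1, Thy1, Grik2 and Gria3 lower, and with Rbfox3 in addition 3 synaptic genes (Syt1, Snap25 and Thy1) and 4 receptor genes, among them Grik2, Gria2 and Gria3, were lower. Syt1, the calcium sensor of vesicle release, differed by 1.09 with at least 1 Igfbpl1 UMI (edgeR adjusted p = 5.17e-06), by 0.32 with at least 3 (edgeR adjusted p = 0.916) and by -0.57 with Rbfox3 and no Igfbpl1 (edgeR adjusted p = 0.00602). Pcp4, a calmodulin-binding protein of granule cells, went from 2.04 to 0.10 and -0.82 in the same subsets. Of 7 granule cell genes, edgeR called 0 with at least 3 Igfbpl1 UMIs (0 at an unadjusted p under 0.05), while with Rbfox3 and no Igfbpl1 Cpne6 was higher and Stxbp6, Pcp4, Penk, Nrgn and Tpbg lower. Of 4 glomerular genes in that subset Synpr, Th and Calb2 were higher.

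Among transcription factors, Pbx3 was lower in Igfbpl1 cells by -2.05 (edgeR adjusted p = 1.33e-27) and with at least 3 Igfbpl1 UMIs by -1.93 (edgeR adjusted p = 1.86e-19), and differed by -0.29 in cells without (edgeR adjusted p = 0.505). Of 21 factors tested with at least 1 Igfbpl1 UMI Sp8 was higher, and Prox1, Etv1, Nr2f1, Nr2f2, Pbx3, Dlx2 and Tshz2 lower, and with at least 3 Sp8 was again higher and Pbx3, Tshz2 and Nr2f2 lower. Vax1 was lower in both, by -2.21 and -2.19. Wnt5a, a secreted Wnt ligand, was among the largest falls with at least 1 Igfbpl1 UMI (-2.69 ± 0.35 (SE), edgeR adjusted p = 1.36e-11). Whether a difference itself changed between the subsets was not tested.

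**Figure D4:**
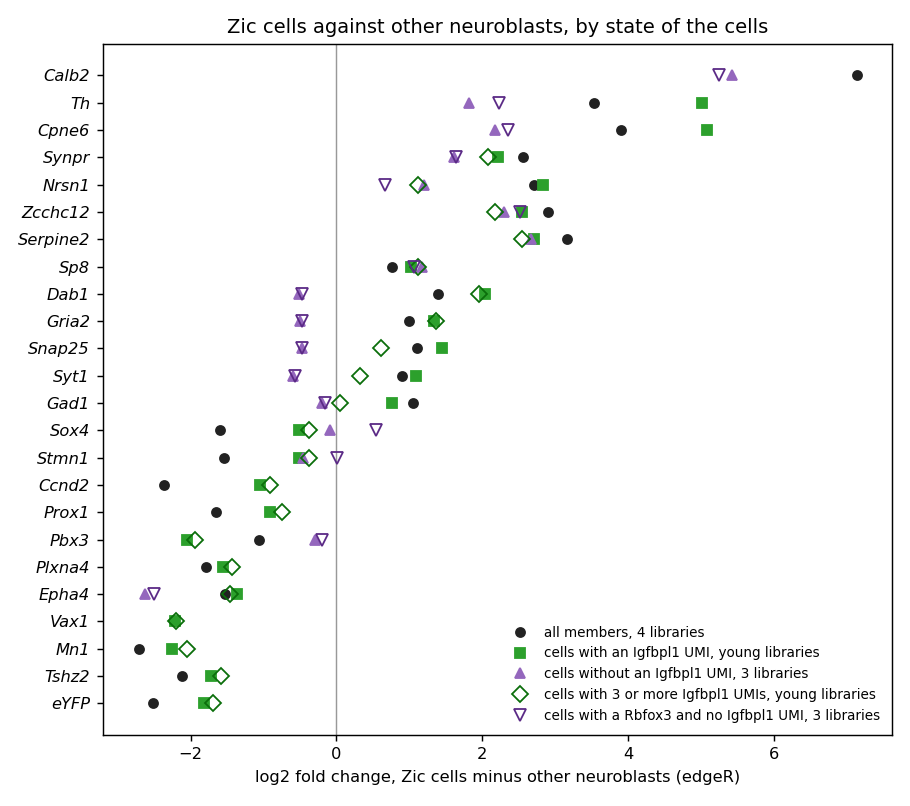
Log2 difference between Zic cells and other neuroblasts for 24 genes, with circles for all cells in 4 libraries, filled squares and open diamonds for cells with at least 1 and at least 3 Igfbpl1 UMIs in the young libraries, and filled and open triangles for cells without Igfbpl1 and for those of them with Rbfox3 in 3 libraries; no symbol is drawn where a gene was below the filter on low counts or has no value in that fit. Synpr, a marker named from earlier results of these data, stayed between 1.61 and 2.56 in all 5 fits. Syt1 went from 1.09 with at least 1 Igfbpl1 UMI to 0.32 with at least 3 and -0.57 with Rbfox3 and no Igfbpl1.

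Against Foxp2 and Sfrp2 neuroblasts, edgeR called 729 of 7019 genes (10.4%), 550 higher (7.84%) and 179 lower (2.55%) in Zic cells. Calb2 had 1 UMI among these 1189 neuroblasts (9.07 ± 0.44 (SE)), and Crhbp and Cpa6 had none, so that their fitted folds are no bound. Cpne6 was at 0.505, 16.0, 3.18 and 1.35 CPM there (7.31 ± 0.44 (SE)), Pcp4l1 at 4.04, 34.6, 8.13 and 1.35 against 80.1, 1032, 538 and 1193 in Zic cells (5.79 ± 0.52 (SE)), and the secretogranin gene Scg2 at 4.55, 18.6, 14.5 and 8.08 against 114, 1492, 387 and 1409.9 (5.55 ± 0.42 (SE)). All 4 libraries kept the classes apart for these genes. They passed the filter on low counts only through the Zic cells, so their differences are a description. Pbx3 was at 1054, 896, 914 and 1001 CPM in Foxp2 and Sfrp2 neuroblasts (-2.03 ± 0.34 (SE), edgeR adjusted p = 0.00411) and Tshz1 at 578, 763, 571 and 703 against 181, 442, 277 and 390.4 (-1.17 ± 0.22 (SE), edgeR adjusted p = 0.00701). Adarb2 (-3.20), Dusp4 (-3.49), Mn1 (-3.16), Tshz2 (-2.55), Flrt2 (-2.40), Cacna2d3 (-2.67) and eYFP (-2.33) were among the 12 largest falls.

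By list, of 18 interneuron factors 1 was higher (Sp8) and 6 lower, among them Pbx3, Etv1, Tshz1, Tshz2 and Dlx1, of 7 granule cell genes 6 were higher and 0 lower, of 14 synaptic genes 11 and 0, of 10 receptor genes 7 and 0, and of 5 glomerular genes Synpr, Th and Calb2. Of 20 migration genes, Dab1, Sema3c and Epha5 were again higher, and Prokr2, the prokineticin receptor of migrating neuroblasts, Erbb4, the neuregulin receptor, Plxna2, Vldlr, Plxna4 and Efnb2 lower. Prokr2 was at 8.43, 18.4, 9.31 and 0 CPM in Zic cells and at 43.5, 47.9, 27.6 and 41.7 in Foxp2 and Sfrp2 neuroblasts (-2.11 ± 0.49 (SE)). It passed the filter on low counts only through the latter, so this difference is a description. Both class comparisons share the Zic cells, so they are not independent of each other. The count of 729 fell to 344 without the WT old library, to 183 without KO young and to 423 without KO old.

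Age within Zic cells was tested as 2 old against 2 young libraries, with genotype as a further term and 1 residual degree of freedom. edgeR called 916 of 3821 genes (24%), 505 higher (13.2%) and 411 lower (10.8%) in the old libraries, while DESeq2 called 206, all of them among the 916, and left 2074 without an adjusted p. Several measures moved with age in the same cells, and their part in the result was not tested: Igfbpl1 cells went from 97.9% and 77.1% to 18.8% and 22.2%, eYFP cells from 54.2% and 17.1% to 0% and 5.56%, and the median mitochondrial share from 2.61% and 2.64% to 3.95% and 3.33%. On simulated counts of this size the fit recovered 0% of genes changed by 1 on the log2 scale, so small changes cannot be read from it. With at least 3 Zic UMIs per cell the count was 45, and with cells of 4000 to 12000 UMIs 403. The old and young libraries did not overlap for 2413 of the 3821 genes tested and for 909 of the 916 called.

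Genes of immature neurons fell. Of 13 tested, 11 were lower in old libraries and Dclk1 was higher. Sox11 was at 4386, 442, 3761 and 651 CPM (-2.98 ± 0.31 (SE), edgeR adjusted p = 8.68e-19), Igfbpl1 at 2492, 332, 1649.7 and 239 (-2.93 ± 0.32 (SE), edgeR adjusted p = 5.34e-17), Cd24a at 1042, 119.7, 782 and 116 (-3.01 ± 0.36 (SE), edgeR adjusted p = 5.06e-14) and Ccnd2 at 1004, 64.5, 938 and 137 (-3.32 ± 0.37 (SE), edgeR adjusted p = 2.21e-16). St8sia2, a polysialyltransferase that builds the PSA-NCAM of migrating neuroblasts, had no UMI in either old library and was at 88.6 CPM in WT young and 72.6 in KO young. The sort took eYFP- cells of the RoB only where PSA-NCAM was low, and the part of that gate was not tested. The guidance gene Draxin was at 139, 0, 102 and 7.23 (-4.78 ± 0.88 (SE)). Robo2, a Slit receptor, was at 291, 73.7, 194 and 50.6 (-2.03 ± 0.45 (SE), edgeR adjusted p = 0.000115). Sox9, a factor of stem cells and astrocytes, was at 122, 9.21, 81.9 and 0 (-4.55 ± 0.92 (SE)), Ddah2 at 477, 9.21, 409.6 and 57.8 (-3.69 ± 0.46 (SE), edgeR adjusted p = 5.81e-13) and Cald1 at 228, 46.1, 259 and 0 (-3.64 ± 0.56 (SE)). St8sia2, Draxin, Sox9 and Cald1 passed the filter on low counts only through the young libraries, so their differences are a description. Each gene given here with values was lower in both old libraries than in both young ones, which the choice of the 12 largest falls required. Dcbld1, Prr13, Ly6e, Syne2, Rlbp1, Klf6 and eYFP filled the 12 largest falls.

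The synaptic, receptor, granule cell and glomerular lists rose. Of 13 synaptic genes 11 were higher and 0 lower, of 9 receptor genes 9, of 6 granule cell genes 6 and of 4 glomerular genes 4. Snhg11, a long non-coding RNA of neurons, was at 189.8, 1916, 328 and 2559.6 CPM (3.05 ± 0.31 (SE), edgeR adjusted p = 1.35e-19), Kcnd2, a potassium channel, at 4.22, 433, 57.7 and 231 (3.11 ± 0.44 (SE), edgeR adjusted p = 3.86e-10) and Lrp1b at 4.22, 249, 16.8 and 145 (3.78 ± 0.56 (SE)). Ryr2, a calcium release channel (3.04), the circadian factor gene Hlf (3.42), the mitochondrial calcium uniporter gene Mcu (3.36) and Adamts19 (3.09) were also among the 12 largest rises. Calb2 rose by 2.25 (SE 0.35, edgeR adjusted p = 1.44e-08), Th by 2.17, Synpr by 1.62, Snap25 by 2.13 and Gad1 by 1.80, each higher in both old libraries. Gabra5, a GABA receptor subunit, was at 0, 166, 50.3 and 181 CPM (2.63 ± 0.51 (SE)). Lrp1b and Gabra5 passed the filter on low counts only through the old libraries, so their differences are a description. Of 11 interneuron factors Pbx3 rose (1.5 ± 0.35 (SE), edgeR adjusted p = 0.000198) and 4 fell, among them Prox1, Dlx2 and Dlx5.

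In the other neuroblasts of the same libraries, Sox11 and Igfbpl1 differed between old and young by -0.28 and -0.47 on the log2 scale, and Cpne6, Snap25 and Syt1 by 2.20, 1.85 and 1.65. The difference in age change between the classes was tested directly, and 263 of 8949 genes were called (2.94%; edgeR, 1100 at an unadjusted p under 0.05), 22 with a more positive and 241 with a more negative age change in Zic cells. The count was 405 without the predicted doublets, of which 1 was a Zic cell, and 346 without cells of at least 3 vascular UMIs. Of 13 genes of immature neurons 10 fell further in Zic cells, with Sox11 at -2.75 ± 0.23 (SE), edgeR adjusted p = 2.27e-10, Igfbpl1 at -2.53 ± 0.24 (SE), edgeR adjusted p = 2.03e-09 and Cd24a at -2.73 ± 0.28 (SE), edgeR adjusted p = 1.5e-08. eYFP fell further as well (-4.23 ± 0.84 (SE), edgeR adjusted p = 0.00117). Pbx3 rose further (1.46 ± 0.26 (SE), edgeR adjusted p = 0.000354), as did Gad2, a GABA-synthesising enzyme (1.04 ± 0.21 (SE), edgeR adjusted p = 0.00158), Scg2 (1.21 ± 0.25 (SE), edgeR adjusted p = 0.00182), the postsynaptic scaffold gene Shank1 (1.45 ± 0.25 (SE), edgeR adjusted p = 0.000186) and Luzp2 (2.01 ± 0.32 (SE), edgeR adjusted p = 6.42e-05). Of 17 synaptic genes only Rab3a was called (0.88 ± 0.22 (SE), edgeR adjusted p = 0.0172), and none of the 5 glomerular, 7 granule cell and 13 receptor genes was. The age difference in Igfbpl1 cells was itself larger in Zic cells (97.9% and 77.1% to 18.8% and 22.2%) than in other neuroblasts (97.0% and 91.5% to 81.9% and 79.7%), and its part in these calls was not tested.

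**Figure D5:**
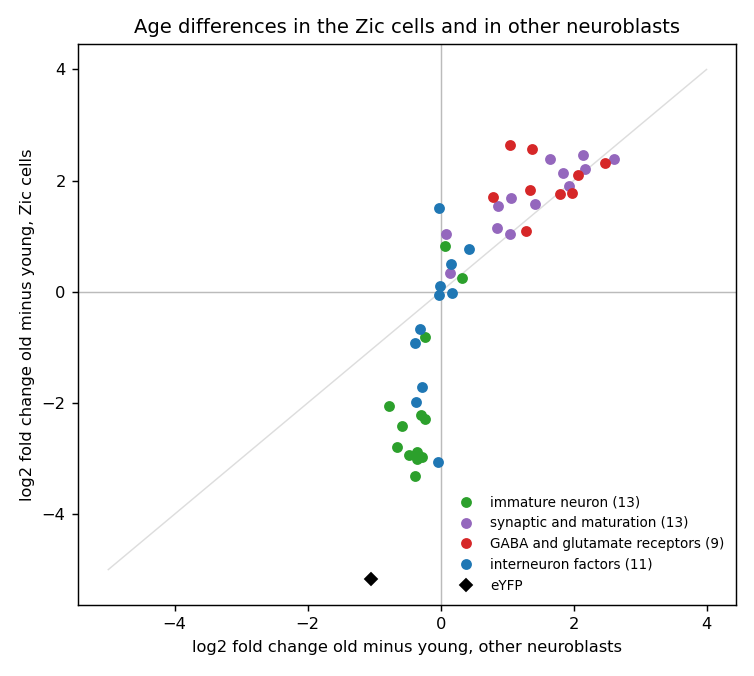
Age change (log2, old over young libraries) of genes in other neuroblasts on the horizontal axis and in Zic cells on the vertical axis, coloured by list; points below the diagonal fell further, or rose less, in Zic cells. Sox11 lay at -0.28 in other neuroblasts and -2.98 in Zic cells, while synaptic genes such as Snap25 (1.85 and 2.13) lay near the diagonal.

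Genotype within Zic cells was tested as 2 KO against 2 WT libraries with age as a further term. edgeR called 11 of 3821 genes (0.288%), all 11 higher in KO and 0 lower, with 193 at an unadjusted p under 0.05, whereas DESeq2 called 0, with 24 at an unadjusted p under 0.05. Npy, the neuropeptide Y gene, was at 46.4, 46.1, 192 and 578 CPM (2.70 ± 0.43 (SE)), but 3 cells held 75.9% of its 199 UMIs. Atp2b4, a calcium pump, was at 4.22, 9.21, 59.6 and 152 (3.80 ± 0.84 (SE)), Snx7 at 16.9, 82.9, 112 and 253 (2.05 ± 0.50 (SE), edgeR adjusted p = 0.0254) and Spock2 at 29.5, 212, 264 and 282 (1.60 ± 0.41 (SE), edgeR adjusted p = 0.0336). Npy and Atp2b4 passed the filter on low counts only through the KO libraries, so their differences are a description. The richest 3 cells held 45.5% of the 55 Atp2b4 UMIs, 46.4% of the 211 Spock2 UMIs and 21.3% of the 108 Snx7 UMIs. The enkephalin gene Penk was at 0, 230.3, 153 and 506 (2.15 ± 0.43 (SE), edgeR adjusted p = 0.000916), Cpne6 at 71.7, 1243, 459.9 and 1656 (1.32 ± 0.32 (SE), edgeR adjusted p = 0.0243) and Pcp4 at 269.9, 2524, 1013 and 3456 (1.11 ± 0.29 (SE), edgeR adjusted p = 0.0443). For the last 3 genes the KO young library lay below the WT old one, so the groups overlapped, and the WT young library was the lowest for all of them except Npy. The other 4 were Pcp4l1, Phactr2, Selenom and Ppp1r16b, named after their values were seen because they complete the 11. The count was 1 without the predicted doublets, 0 with at least 3 Zic UMIs (edgeR, 55 at an unadjusted p under 0.05), 0 in the band of 4000 to 12000 UMIs (136) and 0 without the age term (7).

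The share of Zic cells without Igfbpl1 moved with genotype in the young libraries, at 2.08% in WT young and 22.9% in KO young, and its part in these calls was not tested. At least 3 UMIs of the vascular genes described below were found in 5 of 70 Zic cells of KO young and 0 of 48 of WT young. The part of these cells in that share was not tested. Within Igfbpl1 cells of the young libraries, Pcp4 was at 274 CPM in WT and 220.4 in KO, Cpne6 at 72.9 and 148, Penk at 0 and 22.5, and Npy at 47.2 and 108, with no replicate and with the Pcp4 UMIs in 5 cells of each library. Of the 13 immature, 13 synaptic, 9 receptor and 11 interneuron factor genes, edgeR called 0 for genotype, with 0, 2, 2 and 1 at an unadjusted p under 0.05, and DESeq2 called 0. Of 6 granule cell genes Cpne6, Pcp4 and Penk were called higher by edgeR (median 1.21, 5 at an unadjusted p under 0.05), and 0 by DESeq2. The difference in genotype change between Zic cells and other neuroblasts was called by edgeR for 2 of 8949 genes (0.0223%), with 337 at an unadjusted p under 0.05.

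The interferon genes themselves were sparse in Zic cells. The 31 interferon-stimulated genes found summed to 127, 147, 277 and 108 CPM in Zic cells and to 130, 155, 109 and 122 in other neuroblasts. Of 5 of them tested against other neuroblasts edgeR called 0, and of 3 interferon receptor genes 0, with 0 at an unadjusted p under 0.05 and 0 by DESeq2. Within Zic cells 1 stimulated gene, the class I gene H2-D1, passed the filter on low counts, and it was called for neither age nor genotype. It was at 21.1, 9.21, 59.6 and 65.1 CPM, higher in both KO libraries than in both WT ones. For genotype it differed by 1.81 ± 0.77 (SE) (edgeR unadjusted p = 0.0195, adjusted p = 0.724). It passed the filter only through the KO libraries, and no other stimulated gene could be tested. A response could therefore not be measured gene by gene at this depth.

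Transcripts of other cell types were found in some Zic cells. In KO young, 5 of 70 Zic cells held 21 to 603 UMIs of 8 vascular and mural genes, none of them with a Sp8 or Synpr UMI, and no Zic cell of the other libraries reached 3 such UMIs. The 6 endothelial genes summed to 0, 9.21, 521 and 0 CPM in Zic cells, and Vtn, a vitronectin gene also used as an ensheathing glia marker, was at 359 CPM in KO young, from 4 cells, and at 0 in the other 3. Without cells of at least 3 such UMIs, in either class, the class calls were 645, with 483 higher and 162 lower, the age calls 914 and the genotype calls 10, an alternative added after seeing the data. The 6 ensheathing glia genes summed to 59.0, 175, 598 and 651 CPM in Zic cells and to 23.4, 72.4, 63.4 and 95.6 in other neuroblasts, and Npy, which interneurons express as well, gave 80 of the 90 UMIs in KO old and 103 of 321 in KO young. Of these 6 genes 4 were tested, and Vtn, Matn2 and Npy were higher in Zic cells, while Ctss, the only gene called of 5 microglia genes, had no UMI in Zic cells. The 10 microglia genes summed to 9.21 to 31.7 CPM in Zic cells (other neuroblasts 9.47 to 147), the 10 astrocyte genes to 75.9 to 188 (73.7 to 153), the 6 oligodendrocyte genes to 8.43 to 57.8 (16.3 to 68.1), the 5 oligodendrocyte precursor genes to 0 to 22.3 and the 6 excitatory neuron genes to 63.3 in WT young and 0 elsewhere (0.451 to 8.13).

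Antibody hashtags marked tissue and mouse, but could be called in only 22 of the 152 Zic cells, 5, 4, 9 and 4 per library. Of these 12 carried a RoB and 10 a vSVZ hashtag (54.5% RoB, 95% exact interval 32.2 to 75.6%), against 31.4% RoB of the 407 called other neuroblasts (27.0 to 36.2%). By library the RoB share was 2 of 5, 3 of 4, 6 of 9 and 1 of 4 Zic cells, against 31.2%, 46.2%, 27.1% and 28.6% of other neuroblasts, higher in 3 of 4 libraries. Cells of a library are not replicates, so no test was made, and no sum per mouse could be formed.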

How the data were processed

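Droplet 3′ single-cell RNA sequencing was carried out on 4 libraries, 1 per group, each a pool of 2 mice, with 4 matching hashtag libraries; a sample whose label gave no group was not used. Per the authors' methods, hopped indices were removed from the reads, kallisto and bustools (lamanno workflow) counted the expression libraries, and CITE-seq-Count the hashtags. The submitters' processing notes name GRCm38 and Scanpy 1.6.0. The deposited matrix held raw UMI counts per barcode and gene without a cell filter, and the deposited hashtag table raw counts per barcode. Of 32287 gene rows, 32158 matched a gene ID of GENCODE vM21, in any version.

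The rule for the Zic cells, the gene lists and the tests were chosen with earlier results of these data known. Of the analysis choices, the subsets by Igfbpl1 and Rbfox3 and the removal of vascular cells were added after seeing the data. UMIs were summed per library and class, and CPM are these sums scaled to 1000000 UMIs, while log2 differences came from edgeR 4.0.16 (R 4.3.3) with filterByExpr, TMM factors, the quasi-likelihood test and Benjamini-Hochberg adjusted p under 0.05 over all genes tested. Class comparisons had the library as a block; age and genotype were fitted together over the 4 sums of Zic cells, with 1 residual degree of freedom. The 11 rule genes and mitochondrial genes were left out of the tests but not of library sizes. A gene with few UMIs in a group could pass the filter on low counts only through the other group. Its call then only describes these cells. Standard errors were the log2 difference divided by the square root of F. P-values cover only the spread between these libraries, and the fit shares that spread over genes. With 1 residual degree of freedom, a small p-value rests mainly on this shared spread and little on that of the gene itself.

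Genes named in the text are those of the rule, the 5 markers, the lists, and for each test the 12 largest changes per direction with a mean of at least 20 CPM that went the same way in every library (class) or did not overlap between library pairs (age and genotype); other names are said to be chosen after their values. Alternatives were DESeq2 1.42.0, RLE factors, no filter, removal of doublets predicted by Scrublet in Scanpy 1.11.5, at least 3 Zic UMIs, 4000 to 12000 UMIs per cell, 1 Zic UMI allowed in the comparison cells, and leaving out each library. Intervals are 95% exact (SciPy 1.17.1), and a count of 0 was taken to allow 3 counts. Hashtags were called with a multinomial mixture of 5 components per library. On simulated counts with 200 genes changed by 1 on the log2 scale, edgeR called, of the changed genes it tested, 46.1% against other neuroblasts, 61.2% against Foxp2 and Sfrp2 neuroblasts, 0% for age, 1.17% for genotype and 0.578% for age by class. Some genes are not reported here.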

Additional observations from a re-analysis of the deposited data

Results flagged for a closer look

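The age change of 263 genes differed between Zic cells and other neuroblasts (edgeR, adjusted p under 0.05), by a test of the difference itself over the 4 libraries and both classes. Of these, 22 had a more positive and 241 a more negative age change in Zic cells, and 10 of the 13 genes of immature neurons were among the latter. The count was 405 without the predicted doublets, of which 1 was a Zic cell, and 346 without cells of at least 3 vascular UMIs. The share of cells with an Igfbpl1 UMI moved with age in both classes, from 97.9% in WT young and 77.1% in KO young to 18.8% in WT old and 22.2% in KO old among Zic cells, and from 97.0% and 91.5% to 81.9% and 79.7% among other neuroblasts. The old libraries held 16 and 18 Zic cells, and the part of this shift in the 263 genes was not tested.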

How the results depend on the processing

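The number of genes called against other neuroblasts was 1091 without a filter on low counts, 322 in cells with at least 1 Igfbpl1 UMI, 121 with at least 3, 155 without Igfbpl1 and 183 with Rbfox3 and no Igfbpl1, and 278 to 711 with a library left out. Against Foxp2 and Sfrp2 neuroblasts it was 1461 without a filter and 183 to 906 with a library left out. For age it was 206 by DESeq2, 45 with at least 3 Zic UMIs and 403 in the depth band. For genotype it was 44 without a filter, 1 without predicted doublets, 0 by DESeq2 (24 unadjusted), and 0 by edgeR with at least 3 Zic UMIs (55 unadjusted), in the depth band (136) and without the age term (7). For age by class it was 405 without predicted doublets and 346 without vascular cells. The share of Zic cells at 3 Zic UMIs was 0.537% in WT old and 0.456% in WT young, with 0.618% and 0.293% in KO young and KO old, and the thinned eYFP share 29.2% in WT young, 4.29% in KO young and 0% in KO old.

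Among named genes called against other neuroblasts, 77 of 77 kept the direction and the call with RLE factors and without a filter, 54 of 77 without WT old, 58 of 74 without KO young, 48 of 75 without KO old and 24 of 66 with at least 3 Igfbpl1 UMIs, where 5 turned: Vtn -6.90, Stmn2 0.023, Epha5 -0.16, Npy -0.85 and Rab3a -0.072. In cells without Igfbpl1, 16 of 51 kept both, 12 kept the direction and 23 turned: Atp1b1 -0.25, Syt1 -0.60, Camk2b -0.43, Gria1 -0.56, Vamp2 -0.017, Rbfox3 -0.36, Pcp4 -0.86, Tubb5 0.076, Camk2a -0.59, Grin1 -0.51, Scn2a -0.27, Gad1 -0.20, Dlx2 0.042, Snap25 -0.47, Gria2 -0.50, Penk -0.57, Dab1 -0.52, Sema3c -0.71, Gabra2 -0.32, Grin2b -0.48, Tubb3 0.20, Syn1 -0.14 and Gria3 -0.88. In cells with Rbfox3 and no Igfbpl1, 14 of 49 kept both and 25 turned: Atp1b1 -0.27, Syt1 -0.57, Camk2b -0.43, Gria1 -0.55, Vamp2 -0.033, Rbfox3 -0.48, Sox4 0.55, Pcp4 -0.82, Tubb5 0.56, Camk2a -0.52, Grin1 -0.43, Scn2a -0.22, Gad1 -0.16, Dlx2 0.64, Snap25 -0.48, Gria2 -0.48, Penk -0.61, Dab1 -0.48, Stmn1 0.0030, Sema3c -1.23, Gabra2 -0.24, Grin2b -0.40, Tubb3 0.63, Syn1 -0.17 and Gria3 -0.79. Rbfox3 also chose the cells of this last subset, so its value there only describes them. Vtn, from 4 cells of KO young, turned to -1.50 under DESeq2. The cause of the other changes was not tested.

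No paired analysis was possible because the groups share only replicate number 1, with 1 library each. Leaving out a library was not run for age and genotype, since no residual degree of freedom would be left, and sums per mouse were not run because 22 of 152 Zic cells had a hashtag call. The depth of 16 and 18 Zic cells in the old libraries limits every value there.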
